A study of Homo sapiens with 4 samples.

Results

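The NRF2 antioxidant target genes examined here were 9 genes out of the 20372 in the deposited expression table. They were picked by name, as rows of that table whose gene symbol was NFE2L2, KEAP1, NQO1, HMOX1, GCLC, GCLM, TXNRD1, SRXN1 or OSGIN1, and each of the 9 was present once. NFE2L2 encodes NRF2 itself and KEAP1 its inhibitor, and the other 7 are target genes.

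RNA was sequenced from TPC1, a human thyroid cancer cell line that carries a CCDC6-RET fusion, after exposure to BLU6864, a selective inhibitor of the RET kinase. The BLU6864_24h group held 2 libraries from cells kept in the inhibitor for 24 h, and the BLU6864_6h group held 2 libraries from cells kept in it for 6 h. The labels give a dose of 100 microM for both groups, whereas the methods give the same figure in nM. The 24 h libraries held 26486456 and 27457040 counts in total, and those at 6 h held 23917056 and 26829072. Both 24 h libraries, and neither 6 h library, carry a mark of re-analysis in their titles, so any effect of that step and the effect of time cannot be told apart. Every library was from treated cells, so each difference below is between a later and an earlier time in the inhibitor and is not a difference from untreated cells. The labels do not say whether the 2 libraries of a group came from separate cultures, and P values then measure the spread between these libraries, which may be technical. Counts of the 2 libraries of each group differed by more than sampling noise, since chi-square divided by its degrees of freedom was 7.65 at 24 h (13304 genes) and 10.0 at 6 h (13312 genes).

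NRF2 is a transcription factor that is made continuously and, in unstressed cells, is held by KEAP1 and passed to a ubiquitin ligase for degradation. Oxidants and electrophiles modify cysteines of KEAP1, NRF2 then accumulates, pairs with small MAF proteins and binds antioxidant response elements near genes for glutathione synthesis, thioredoxin recycling, quinone reduction and heme breakdown. Because this control acts mainly on the protein, the mRNA of NFE2L2 is not a measure of NRF2 activity.

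Between 6 h and 24 h in BLU6864 the 9 genes did not move together. NQO1 rose, by 1.54-fold. GCLM, HMOX1, OSGIN1 and KEAP1 fell, with levels at 6 h that were 1.44-fold, 1.31-fold, 1.22-fold and 1.19-fold those at 24 h. NFE2L2, TXNRD1, GCLC and SRXN1 did not pass the test. Called in edgeR's quasi-likelihood test at an adjusted P under 0.05, 1 of the 9 genes was higher at 24 h, where 33.0% of the 12876 genes tested were higher. The number lower was 4 of 9, where 32.6% of all genes tested were lower. In either direction 5 of 9 genes were called, against 65.6% of all genes tested, so the share of these genes that changed was not above the background of this contrast. With a log2 fold change past 0.5 in size and an unadjusted P under 0.01, 1 gene was higher (NQO1) and 1 was lower (GCLM), where 17.4% and 17.7% of all genes tested were called. The median log2 fold change of the 9 genes was -0.25, beside 0.00293 over all genes tested. All 9 passed the filter on low counts. The number lower was 2 in place of 4 when 24 h replicate 2 was left out, since KEAP1 and OSGIN1 were then not called.

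**Figure D1:**
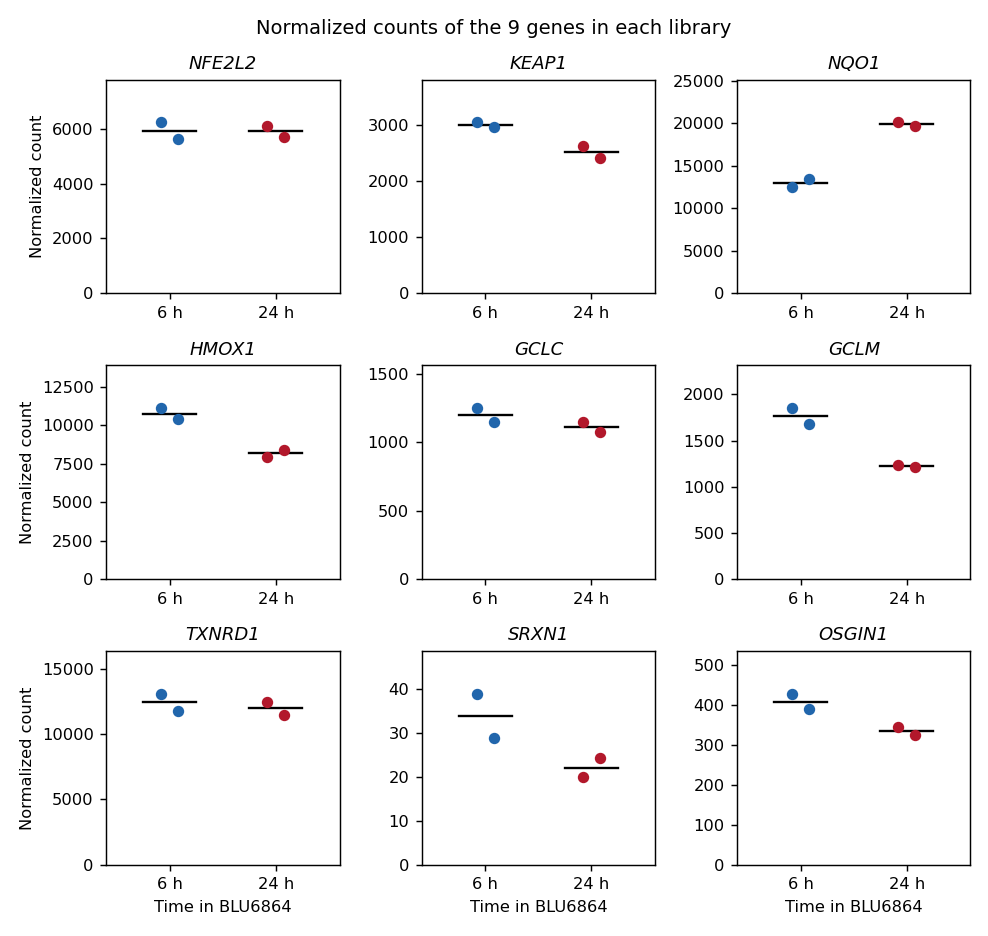
Normalized counts (vertical axes, each starting at 0) of the 9 genes in the 2 libraries at 6 h (blue points) and the 2 libraries at 24 h (red points), with a black line at each group mean. Both 24 h points of NQO1 sit above both 6 h points, those of KEAP1, HMOX1, GCLM, SRXN1 and OSGIN1 sit below, and the points of NFE2L2, GCLC and TXNRD1 overlap.

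Promoters of the 9 genes were searched for the core of the antioxidant response element, TGACNNNGC, on both strands. The windows came from RefSeq (build GRCh38.p14) and ran from 250 bases before to 50 bases after each start site, 300 bases in all. An entry was found for 8 of the 9 genes, all but HMOX1. The core was present in the windows of GCLM and TXNRD1, 2 of 8, where 13.3% of all 35116 promoters of this length held it. No match stood in the windows of NFE2L2, KEAP1, NQO1, GCLC, SRXN1 or OSGIN1, which says only that these letters are not in these stretches. The matched stretches are shown because GCLM fell and TXNRD1 did not pass the test, with the same kind of element in both windows. Capitals mark the core and 10 bases stand on either side, read 5′ to 3′ on the strand of the gene.
GCLM: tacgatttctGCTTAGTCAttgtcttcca
TXNRD1, farther match: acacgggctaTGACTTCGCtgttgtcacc
TXNRD1, nearer match: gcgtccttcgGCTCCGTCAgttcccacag
The GCLM stretch lies at chr1:93909446-93909474 on the minus strand, and its core, read on the opposite strand, spans bases 34 to 26 before the start site. The TXNRD1 stretches lie at chr12:104215670-104215698 and chr12:104215761-104215789 on the plus strand. The farther core reads along the gene's own strand, 99 to 91 bases before the start site, and the nearer one reads on the opposite strand and begins 8 bases before it. None of these 3 cores overlapped a match to TGANTCA, the motif of the AP-1 factors, which resembles the element and was present in 7.71% of all promoters.

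**Figure D2:**
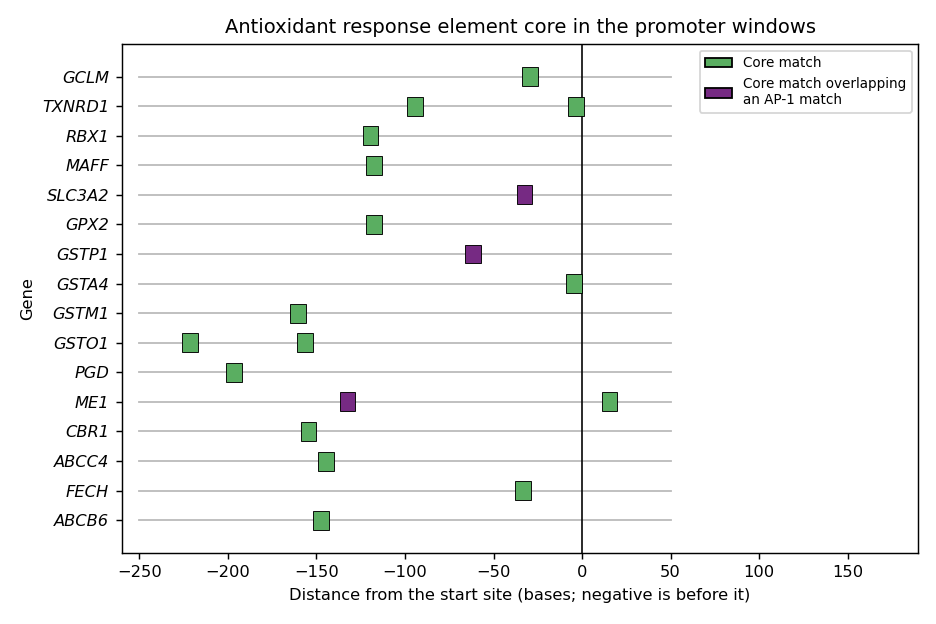
Positions of antioxidant response element cores in the promoter windows of GCLM, TXNRD1 and the 14 pathway genes with a match. The horizontal axis is the distance from the start site in bases, grey lines are the windows, green boxes are cores and purple boxes are cores that overlap an AP-1 match. The 3 purple boxes belong to SLC3A2, GSTP1 and ME1.

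The transcription factor and its inhibitor were described first. NFE2L2 (ENSG00000116044, chr2:178092323-178257425 in hg19) had 6093 and 5703 normalized counts at 24 h, beside 6228 and 5620 at 6 h. The groups overlapped, with the highest and the lowest value both at 6 h. Its mean was 5898 ± 276 normalized counts at 24 h and 5924 ± 430 at 6 h (SD, n = 2). The log2 fold change was -0.01 (SE 0.0747), with an edgeR adjusted P of 0.946 and a 95% confidence interval of -0.16 to 0.15. In fold terms the interval ran from 0.895 to 1.11. The sign of this small value turned to positive with upper quartile scaling and when some libraries were left out. The end of NFE2L2 shares 54 bases with AGPS, a gene with 1911 to 2686 counts, so a small number of reads there could belong to either.

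KEAP1 (ENSG00000079999, chr19:10596796-10614417) encodes the adaptor that delivers NRF2 to the CUL3 ubiquitin ligase. It had 2633 and 2403 normalized counts at 24 h and 3044 and 2963 at 6 h. Both 24 h libraries were below both 6 h libraries, as for 40.8% of all genes tested. The means were 2518 ± 163 at 24 h and 3003 ± 57.7 at 6 h (SD, n = 2). KEAP1 fell by 0.25 on the log2 scale (SE 0.0719, edgeR adjusted P = 0.00311). This call was lost without 24 h replicate 2, the lower of the 24 h libraries, where the log2 fold change was -0.18 and the edgeR adjusted P 0.0815. Over all alternatives the adjusted P of KEAP1 ran from 7.78e-05 to 0.0815.

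Set against each other within a library, a comparison that needs no scaling between libraries, NFE2L2 had 2.31 and 2.37 counts for each KEAP1 count at 24 h. The corresponding ratios of NFE2L2 to KEAP1 were 2.05 and 1.90 at 6 h. The ratio of the factor's mRNA to its inhibitor's mRNA was thus higher in both later libraries, and the log2 fold changes of NFE2L2 and KEAP1 differed by 0.25. This and the other ratios of 2 genes below were formed after the values were seen and have no test.

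NQO1 (ENSG00000181019, chr16:69740899-69760854) encodes a quinone reductase that moves 2 electrons at once and so avoids reactive semiquinones. Its raw counts were 20155 and 20169 at 24 h and 11550 and 13959 at 6 h. Scaled to a common library size these became 20080 and 19627 normalized counts at 24 h and 12468 and 13392 at 6 h. Both later libraries lay above both earlier ones, as for 41.0% of all genes tested, and the gap between the groups was wider than the distance between libraries of either group. The mean rose from 12930 ± 653 to 19854 ± 320 normalized counts (SD, n = 2). The log2 fold change of NQO1 was 0.62 (SE 0.0780, edgeR adjusted P = 1.12e-07), with a 95% confidence interval of 0.46 to 0.78. In fold terms the interval ran from 1.37 to 1.72. That change stood at percentile 85.1 among the 12876 genes tested. NQO1 was higher at 24 h under each of the 11 alternatives, with log2 fold changes from 0.57 to 0.67.

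HMOX1 (ENSG00000100292, chr22:35776354-35790207) encodes the inducible heme oxygenase, which opens the heme ring to give biliverdin, iron and carbon monoxide. It had 7952 and 8406 normalized counts at 24 h and 11102 and 10388 at 6 h. The 24 h libraries were both lower. Mean values were 8179 ± 321 and 10745 ± 505 normalized counts (SD, n = 2), at 24 h and 6 h respectively. HMOX1 fell by 0.39 on the log2 scale (SE 0.0752, edgeR adjusted P = 5.34e-05, 95% confidence interval -0.55 to -0.24). Each alternative kept its direction and its call, with log2 fold changes from -0.44 to -0.35.

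Because HMOX1 is also expressed by macrophages, markers of white blood cells were read beside it. The 9 white blood cell markers summed to 2690 and 2828 counts at 24 h and to 4510 and 4841 counts at 6 h, which is the same direction as HMOX1. CD68, a lysosomal protein that other cells can express too, was the most abundant in every library and gave 2592, 2728, 4452 and 4784 of these counts. CD14 had 85 and 91 counts at 24 h and 47 and 41 at 6 h, which is the other direction. The defining marker PTPRC had 3 and 0 counts at 24 h and 1 and 5 at 6 h, TYROBP had at most 1 count, and CD3E had 1 count in a single library. The labelled thyroid origin was read in the same way, and 4 of its 7 markers had counts in every library. PAX8 led them with 20035 and 21660 counts at 24 h and 19124 and 22978 at 6 h. TG had fewer counts at 24 h (98 and 111) than at 6 h (186 and 245), FOXE1 had more (462 and 556, against 273 and 279), and SLC5A5 had at most 7. NKX2-1 and TSHR had no count in any library, which allows at most 0.109 to 0.125 CPM for each, by counting error alone, where CPM is the count scaled to a library total of 1000000. The 6 epithelial markers summed to 3364 and 3425 counts at 24 h and 2886 and 3108 at 6 h, mostly KRT8 and KRT18. KRT18 and KRT7 had more counts in both 24 h libraries, KRT8 had 1720 to 1811 in all 4, and KRT19 (37 and 40 at 24 h, 100 and 125 at 6 h) and EPCAM (1 and 1 at 24 h, 11 and 6 at 6 h) went the other way. The 6 fibroblast markers summed to 146 and 164 counts at 24 h and 265 and 283 at 6 h, with COL1A2 and COL3A1 at 0. COL1A1 carried this difference with 63 and 95 counts at 24 h and 218 and 237 at 6 h, while LUM went the other way with 71 and 66 at 24 h and 39 and 40 at 6 h. The part of these shifts in the changes of the 9 genes was not tested, and in bulk RNA a smaller number of expressing cells and less RNA per cell cannot be told apart.

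NQO1 and HMOX1 therefore changed in opposite directions under each of the 11 alternatives. A count of HMOX1 was matched by 2.53 and 2.33 counts of NQO1 at 24 h. At 6 h the ratio of NQO1 to HMOX1 was 1.12 and 1.29. The log2 fold changes of NQO1 and HMOX1 were 1.01 apart.

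The first step of glutathione synthesis is carried out by glutamate-cysteine ligase, made of a catalytic subunit, GCLC, and a modifier subunit, GCLM, that raises its efficiency. GCLM (ENSG00000023909, chr1:94350761-94374966 in hg19), whose promoter stretch with a core match is shown above, had 1237 and 1214 normalized counts at 24 h and 1850 and 1684 at 6 h. Both later libraries were below both earlier ones, and they lay close to each other. The mean was 1225 ± 16.9 at 24 h and 1767 ± 118 at 6 h (SD, n = 2). GCLM fell by 0.53 on the log2 scale (SE 0.0730, edgeR adjusted P = 5.30e-07), with a 95% confidence interval of -0.68 to -0.38. It stood at percentile 18.1 of all genes tested. The fall lay close to the size cutoff of 0.5, and it missed that cutoff with upper quartile scaling (-0.497) and without 6 h replicate 1 (-0.46), while its adjusted P stayed under 0.05 in both.

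GCLC (ENSG00000001084, chr6:53362139-53481768) had 1151 and 1080 normalized counts at 24 h and 1251 and 1149 at 6 h. The groups overlapped, since the higher 24 h library was above the lower 6 h library. The log2 fold change of GCLC was -0.10 (SE 0.0765, edgeR adjusted P = 0.232), and its 95% confidence interval of -0.26 to 0.05 lay above the interval of GCLM throughout. The difference between the 2 subunits was not itself tested. Within a library there were 0.930 and 0.890 counts of GCLC for each count of GCLM at 24 h, and 0.676 and 0.683 at 6 h. Libraries of the same group differed little in this ratio of GCLC to GCLM, and the later pair was higher.

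TXNRD1 (ENSG00000198431, chr12:104609557-104744061) encodes the cytosolic thioredoxin reductase, a selenoprotein that returns thioredoxin to its reduced form with electrons from NADPH. It had 12486 and 11434 normalized counts at 24 h and 13065 and 11760 at 6 h. The groups overlapped and the 2 libraries of each group lay farther apart than the group means. The means were 11960 ± 744 and 12413 ± 923 normalized counts at 24 h and 6 h (SD, n = 2). The log2 fold change of TXNRD1 was -0.05 (SE 0.0793, edgeR adjusted P = 0.569, 95% confidence interval -0.22 to 0.11), and it was above 0 without 24 h replicate 2 and without 6 h replicate 1. TXNRD1 thus held 2 core matches in its promoter window and did not pass the test, whereas GCLM with 1 match fell and NQO1 with none in its window rose. EID3 lies inside TXNRD1 and had no more than 2 counts in any library.

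SRXN1 (ENSG00000271303, chr20:627259-634014) encodes sulfiredoxin, which repairs overoxidized peroxiredoxins. It was the least abundant of the 9 genes, with 20 and 25 raw counts at 24 h and 36 and 30 at 6 h. Its normalized counts were 19.9 and 24.3 at 24 h and 38.9 and 28.8 at 6 h, so the later libraries were both lower. The log2 fold change of SRXN1 was -0.60 (SE 0.301), with a 95% confidence interval from -1.22 to 0.02 and an edgeR adjusted P of 0.0841. Leaving out a library moved it to between -0.81 (without 6 h replicate 2) and -0.38 (without 6 h replicate 1). At this depth the difference did not pass the test, and a fold of 0.430 to 1.02 remained within the interval. Of the SRXN1 span, 99.8% overlaps a longer gene of the same table that had 1 to 6 counts. How reads in such overlaps were assigned is not given in the sources used here, and the counts of SRXN1 are uncertain for that reason.

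OSGIN1 (ENSG00000140961, chr16:83981887-83999937) encodes a growth inhibitor induced by oxidative stress. It had 345 and 325 normalized counts at 24 h and 429 and 390 at 6 h. The 24 h libraries were both below the 6 h libraries, with means of 335 ± 13.9 and 410 ± 26.9 (SD, n = 2). OSGIN1 fell by 0.29 on the log2 scale (SE 0.102, edgeR adjusted P = 0.0151). This call was lost in DESeq2, where the adjusted P was 0.0780. It was lost as well without 24 h replicate 2 (edgeR adjusted P = 0.0926) and without 6 h replicate 1 (edgeR adjusted P = 0.131). Over all alternatives the adjusted P of OSGIN1 ran from 0.00485 to 0.131, and each log2 fold change was below 0. Another gene, with at most 2 counts in a library, covers 17.6% of the span of OSGIN1.

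**Figure D3:**
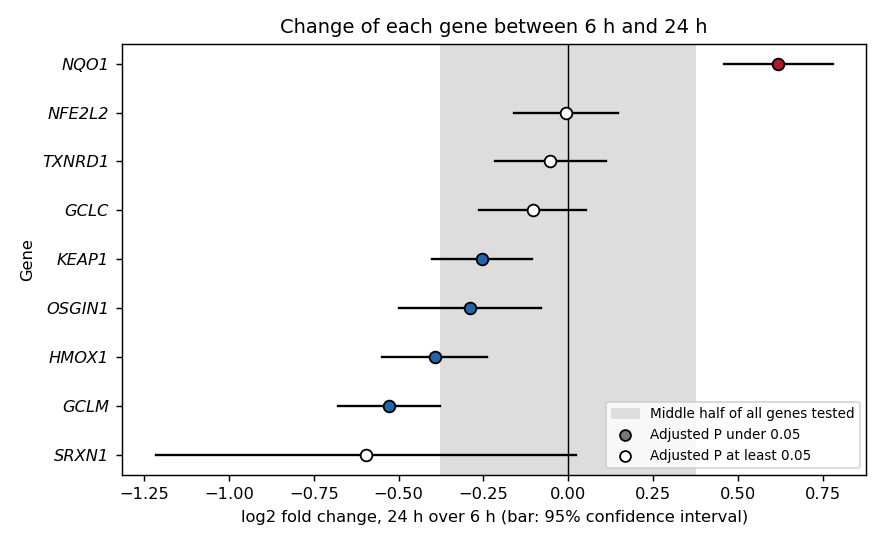
Log2 fold changes (24 h over 6 h, horizontal axis) of the 9 genes with their 95% confidence intervals. Filled points have an adjusted P under 0.05 and open points do not, and the grey band covers the middle of all genes tested, from the lower quartile at -0.37 to the upper quartile at 0.37. NQO1 lies to the right of the band, GCLM, HMOX1 and SRXN1 lie to the left of it, and the others lie inside it.

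Levels of different genes were compared per length, as TMM-scaled CPM per kb, taking for each gene its longest protein-coding transcript. HMOX1 had the highest level of the 9 genes at 6 h, with 273 and 256 CPM per kb, ahead of NQO1 with 189 and 203. At 24 h the order of these genes was exchanged, with 304 and 297 for NQO1 and 196 and 207 for HMOX1. The libraries did not overlap at either time. This order rests on the transcript lengths used, 1554 bases for HMOX1 and 2527 for NQO1, since the raw counts of NQO1 were higher at both times. TXNRD1 came next, with levels of 110 to 126 CPM per kb over the 4 libraries. NFE2L2 followed with levels of 51.6 to 57.2, and KEAP1 with 34.7 to 44.0. GCLM and GCLC formed a close pair, and their order also differed by time. At 6 h GCLM had levels of 14.5 and 13.2 and GCLC of 12.6 and 11.6. At 24 h GCLM had levels of 9.69 and 9.50 and GCLC of 11.6 and 10.9. The order of this pair also rests on the transcript lengths used, 4883 bases for GCLM and 3785 for GCLC. Raw counts of GCLM were higher than those of GCLC at both times. Levels of OSGIN1 were 5.57 to 7.35, and those of SRXN1 were 0.301 to 0.588. Among the 12566 tested genes with a length, NQO1 ranked at 226, HMOX1 at 241 and TXNRD1 at 551 by level over both times, while SRXN1 ranked at 11475.

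**Figure D4:**
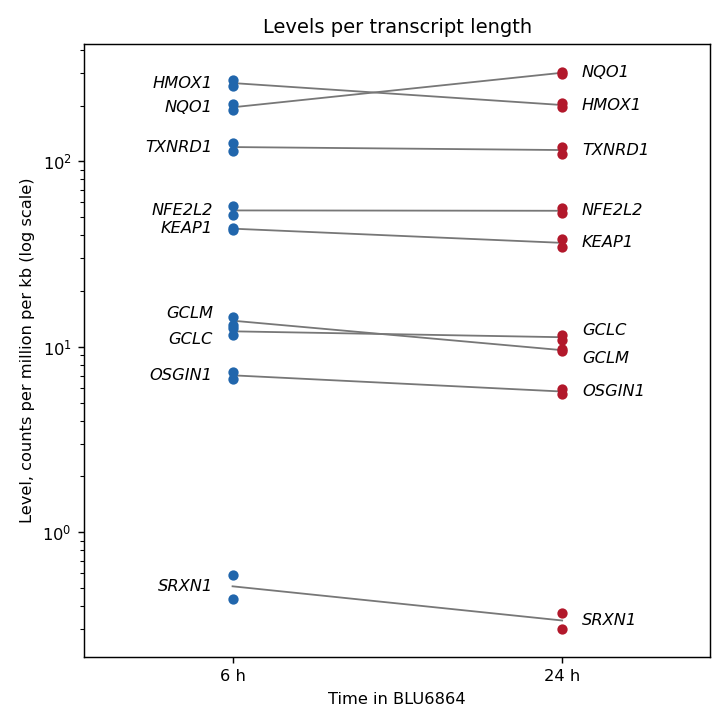
Levels of the 9 genes in CPM per kb of transcript (vertical axis, log scale) in each library at 6 h (blue) and 24 h (red), with grey lines joining the group means. The lines of NQO1 and HMOX1 cross near the top, and those of GCLC and GCLM cross lower down.

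Summed over the 9 genes, normalized counts were 51998 and 50216 at 24 h and 49476 and 47376 at 6 h. The total thus differed less than its makeup. NQO1 supplied 38.6% and 39.1% of the raw counts of the 9 genes at 24 h and 25.2% and 28.3% at 6 h. The share of HMOX1 was 15.3% and 16.7% at 24 h and 22.4% and 21.9% at 6 h. TXNRD1 supplied between 22.8% and 26.4% in every library.

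The wider pathway was read from 8 lists that hold 86 genes, of which 78 were tested. Among these, 34 were higher and 24 lower at 24 h in edgeR at an adjusted P under 0.05, and 20 were not called, beside the 33.0% and 32.6% of all genes. These shares are the background for each list below. Of the 10 regulators and partners of NRF2, 3 were higher and 2 lower. SQSTM1, an autophagy receptor that can sequester KEAP1, rose with a log2 fold change of 0.69, and MAFF, a small MAF partner, rose with 0.64. RBX1, the RING subunit of the ligase that KEAP1 serves, fell by 0.66 on the log2 scale. CUL3, its scaffold, had a log2 fold change of 0.06 and an edgeR adjusted P of 0.492.

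Around GCLC and GCLM, 8 of the 17 tested genes for glutathione synthesis and use were higher and 5 lower. The parts of the cystine importer moved apart. SLC7A11, its transport subunit, had 268 and 264 raw counts at 24 h and 749 and 877 at 6 h, and it fell by 1.66 on the log2 scale (edgeR adjusted P = 1.73e-14). SLC3A2, the heavy chain that it shares with other amino acid transporters, had 6337 and 6712 raw counts at 24 h and 2615 and 2881 at 6 h, and it rose by 1.20 on the log2 scale (edgeR adjusted P = 4.46e-14). GPX4, which reduces lipid peroxides with glutathione, rose with a log2 fold change of 0.996.

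Beside TXNRD1 and SRXN1, the thioredoxin and peroxiredoxin list had 5 genes higher and 5 lower of 14. TXNRD3, a paralog of TXNRD1, rose with a log2 fold change of 1.34. GLRX, a glutaredoxin, fell by 0.87 on the log2 scale, and TXNIP, an inhibitor of thioredoxin, fell by 0.84. Of the 6 enzymes that make NADPH, the electron source of NQO1 and TXNRD1, 2 were higher and 3 lower. TKT of the pentose phosphate pathway rose with a log2 fold change of 0.67, and IDH1, which makes NADPH from isocitrate, fell by 0.38.

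Quinone and carbonyl detoxification, the list nearest to NQO1 in function, had 5 genes higher and 6 lower of 12 tested. AKR1C1, a ketosteroid reductase, had 11 and 11 raw counts at 24 h and 210 and 237 at 6 h, and it fell by 4.37 on the log2 scale (edgeR adjusted P = 1.38e-15). AKR1B10, an aldose reductase relative, fell by 2.66, and CBR3, a carbonyl reductase, fell by 1.93. AKR1C1 has close paralogs, and how reads were split among them is not stated, so its values are uncertain, as are those of AKR1B10. AKR1B1, an aldose reductase named here after its values were seen, rose by 0.61 on the log2 scale (edgeR adjusted P = 2.02e-06), beside 0.62 for NQO1.

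Near HMOX1 in function, 6 of the 10 heme and iron genes were higher and 2 lower, beside 33.0% and 32.6% of all genes tested. The number lower was 1 in 6 of the 11 alternatives, namely DESeq2, both other filters on low counts, and without 24 h replicate 2, 6 h replicate 1 or 6 h replicate 2. SLC48A1, a heme transporter of lysosomal membranes, had 2590 and 2988 raw counts at 24 h and 281 and 294 at 6 h, and it rose by 3.23 on the log2 scale (edgeR adjusted P = 1.37e-21). The ferritin chains FTL and FTH1, which store iron, rose with log2 fold changes of 1.17 and 1.05 while HMOX1 fell, and FTH1 has many processed pseudogenes that could take reads. Among the 6 multidrug efflux transporters, 4 were higher and 0 lower, beside 33.0% and 32.6% of all genes tested. The efflux list had 0 lower with DESeq2 as well, and 0 at an unadjusted P under 0.05. The uncalled genes, ABCC2 and ABCG2, had 35 to 54 counts per library, so a fall in them could be missed. ABCC2 had a log2 fold change of -0.30, with both 24 h libraries below both 6 h libraries. ABCC4, ABCC3 and ABCC1 rose with log2 fold changes of 2.27, 1.92 and 0.73. Of the 3 tested superoxide dismutases and catalase, CAT rose with a log2 fold change of 0.47 and SOD1 fell by 0.31, and the number higher was 2 in place of 1 without 6 h replicate 1.

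**Figure D5:**
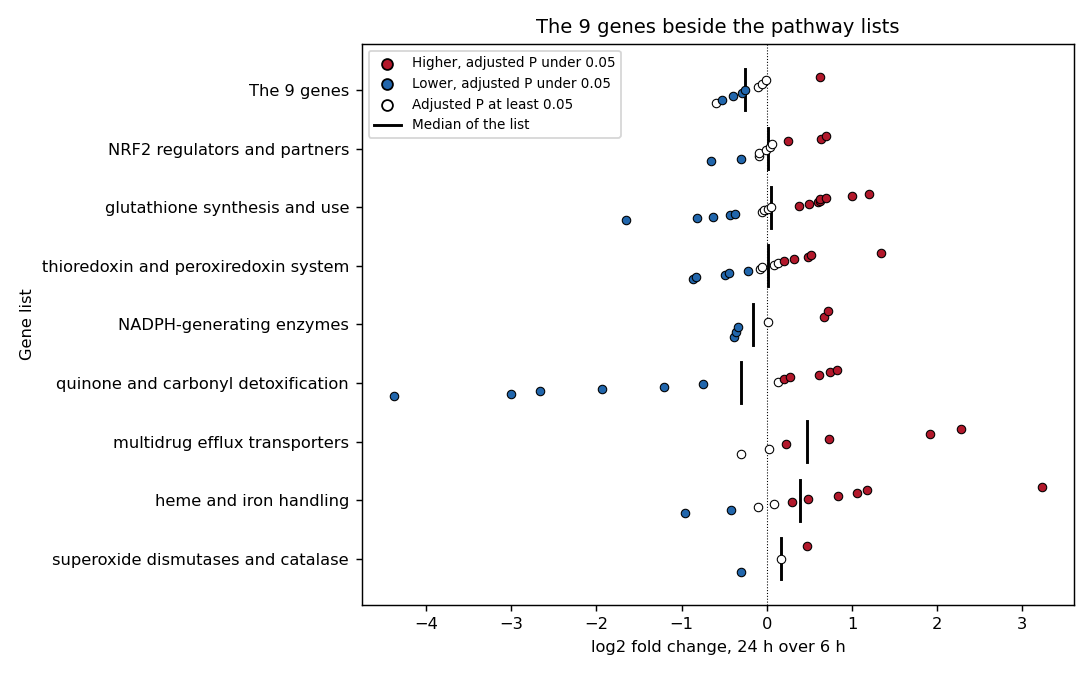
Log2 fold changes (24 h over 6 h, horizontal axis) of the 9 genes and of the tested genes of the 8 pathway lists. Red points are higher and blue points lower, both with an adjusted P under 0.05, open points are not called, and black lines are list medians. The median is -0.25 for the 9 genes, -0.31 for quinone and carbonyl detoxification, 0.39 for heme and iron handling and 0.47 for multidrug efflux transporters.

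The core of the antioxidant response element stood in the windows of 14 of the 67 pathway genes with a RefSeq promoter, or 20.9%, beside 13.3% of all promoters and 2 of 8 of the 9 genes. The windows of SLC3A2, GSTP1 and ME1 each held a core with the same letters, TGACTCAGC, which also hold a full AP-1 match. ME1 held another core as well, which begins at base 12 after the start site, has other letters and overlaps no AP-1 match. They are shown, with the core in capitals, because the same letters stood beside changes of different size.
SLC3A2: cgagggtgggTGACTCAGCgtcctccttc
GSTP1: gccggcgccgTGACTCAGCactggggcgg
ME1: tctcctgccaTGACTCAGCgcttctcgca
These stretches lie at chr11:62881652-62881680, chr11:67583736-67583764 and chr6:83431170-83431198 in GRCh38.p14, on the plus, plus and minus strand. SLC3A2 had a log2 fold change of 1.20, GSTP1 of 0.37 (edgeR adjusted P = 6.82e-05) and ME1 of 0.01 (edgeR adjusted P = 0.874). GSTP1 and ME1, which were named here after their values were seen, encode a glutathione transferase and a malic enzyme that makes NADPH.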

How the data were processed

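The authors deposited a table of whole-number read counts per gene for 4 libraries of TPC1 cells, aligned with STAR (version 2.3 in the submitters' processing notes) to hg19. The methods name a later STAR version and paired-end reads, whereas the labels give single-end reads, and the sources used here do not settle which holds for these libraries. The program that made the counts, and whether it used strand, are not given in the sources used here. Beside the counts, the deposited table holds a size-factor normalized signal, which was the count divided by a single factor per library (100% of values with a count, within a relative tolerance of 1e-06), and it was not tested. The columns of their own comparison, fold changes and P values, were not used.

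Differences were fitted on the raw counts in R 4.3.3 with edgeR 4.0.16 (filterByExpr, TMM, glmQLFit and glmQLFTest with time as the only factor), with Benjamini-Hochberg adjustment over all 12876 genes tested. Each standard error follows from the F statistic and its log2 fold change. For normalized counts, each library's counts were divided by its TMM-scaled size over the average size of the 4 libraries. The test was also run on simulated data with known changes, whose means and spread came from the real counts. DESeq2 1.42.0, other scalings and filters, a replicate block and leaving out each library were alternatives. Lengths came from GENCODE release 44. Promoter windows came from RefSeq. Python 3.11.15 and matplotlib 3.10.9 made the plots.

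The 9 genes and the lists of pathway genes and cell markers were chosen with earlier results of these data known. Named pathway genes were, in each list, up to 3 with the largest absolute log2 fold change among those with an adjusted P under 0.05 and a mean normalized count of at least 50. CUL3, MAFG, MAFK, NQO2, AKR1B1, ABCC2, ABCG2, GSTP1 and ME1 were named after their values were seen. Some genes of these lists are not reported here by name.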

Additional observations from a re-analysis of the deposited data

How the results depend on the processing

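NQO1, HMOX1 and GCLM kept their direction and their call under all 11 alternatives. Upper quartile scaling gave a log2 fold change of 0.0239 for NFE2L2, in place of -0.01, and 0 in place of 1 for the count of genes lower by the size cutoff. In DESeq2, OSGIN1 had a log2 fold change of -0.29 and was not called. Leaving out each library in turn, with a lone library assumed to vary like the other group, gave log2 fold changes of -0.0826 to 0.0686 for NFE2L2, -0.13 to 0.0234 for TXNRD1, -0.31 to -0.18 for KEAP1, -0.36 to -0.22 for OSGIN1, -0.17 to -0.0443 for GCLC and -0.81 to -0.38 for SRXN1. GCLC and SRXN1 were not called in any of these. The median of the 9 genes then ran from -0.31 to -0.18, the count lower at an adjusted P under 0.05 from 2 to 4, and the count lower by the size cutoff from 0 to 1. The cause of these differences was not tested. Over the pathway lists the number of genes higher ran from 31 to 35 and lower from 21 to 24.

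Libraries with the same replicate number deviated together only weakly (r = 0.190 across genes), so the numbers were not taken to pair the samples. With the replicate block, 1 of the 9 genes was higher and 4 were lower, and over all genes 4524 were higher and 4448 lower, against 4247 and 4196 without it. Depth limits SRXN1 most, with 20 to 36 counts per library.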
